A study of Mus musculus with 15 samples.

Results

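The genes described here are 41 mouse interferon-stimulated genes, a list by name that includes Usp18, the negative regulator of interferon signalling that removes ISG15 from proteins. They were followed in RNA-seq libraries of brain cells with and without Phf6, the X-linked chromatin protein mutated in Börjeson-Forssman-Lehmann syndrome. Of the 41 genes, 39 were among the 23129 genes kept from the 26150 gene identifiers of the count table. Mx1 and Mx2 were left out because the annotation lists both as transcribed pseudogenes. In cultured neurons 34 members passed the low-count filter and in cortex 29, and those 29 were all among the 34.

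The 15 libraries came from individual male C57BL/6 foetuses and fell into 4 groups. The cortex at E15.5 was taken from 3 Phf6+/Y controls and 5 Phf6-/Y animals, which carry a germline deletion of the floxed exons, and each of litters 1, 2 and 3 held both genotypes. The neurons were isolated from cortex at E16.5 and kept in culture for 24 hours. Their 3 controls were Phf6+/Y;Nes-cre Tg/+ (litters 4, 5 and 6) and the 4 deleted samples were Phf6lox/Y;Nes-cre Tg/+ (litters 4, 5, 6 and 7), so that all neuron samples carried the Nestin-cre transgene, which acts in neural progenitors and their progeny and not in every cell of the dish. The deleted sample of litter 7 had no control littermate. Library totals were 16858007 to 31157700 counts. Phf6 itself was 228 to 259 CPM (counts adjusted for library size, so that libraries of unequal depth can be compared) in control neurons and 59.9 to 85.8 CPM in deleted neurons, and 149 to 191 CPM against 42.4 to 55.2 CPM in cortex. These Phf6 counts cover the whole gene, including exons that the deletion leaves in place. The study reported no reads on the floxed exons in either tissue and no PHF6 protein in brain at E15.5. Neuronal markers were at 9943 to 11173.6 CPM in sum over 10 genes in the cultures, with none at 0 reads, and the groups of cultures overlapped.

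Type I interferons bind the receptor IFNAR1-IFNAR2, whose kinases JAK1 and TYK2 phosphorylate STAT2. STAT2 and IRF9 are subunits of the complex ISGF3, which binds interferon-stimulated response elements (ISREs) in the promoters of many interferon-stimulated genes, while interferon-gamma acts through gamma-activated sites (GAS). The products detect viral RNA, block viral replication, present antigen or conjugate ISG15, and USP18 also binds IFNAR2 and damps the receptor. Neurons and glia respond to interferon, and several of these genes are also transcribed at a low level without it.

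Promoter sequences from 250 bases before to 50 bases after the RefSeq start (GRCm38, the same build as mm10) were found for 31 of the 41 members. They were searched on both strands for the core of the ISRE, GAAA followed after any 2 bases by GAAA again, and for TTCNNNGAA, the core of the GAS. The ISRE core was in the promoters of 11 of 31 members (35.5%) and of 3.99% of the 27025 genes in the promoter table, and the GAS core was in 7 of 31 (22.6%) and in 9.55% of all genes. The windows below are shown because their genes span the range of responses described afterwards, and they are written 5′ to 3′ on the strand of the gene with the matches in capitals.
Bst2 (chr8:71537580-71537609, minus strand), 2 overlapping ISRE matches: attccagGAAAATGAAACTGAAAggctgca
Isg15 (chr4:156200871-156200900, minus strand), 3 overlapping ISRE matches: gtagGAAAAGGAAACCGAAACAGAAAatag
B2m (chr2:122147538-122147567, plus strand), ISRE core: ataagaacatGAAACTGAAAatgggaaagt
Eif2ak2 (chr17:78882535-78882564, minus strand), ISRE core: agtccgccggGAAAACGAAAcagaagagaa
Rsad2 (chr12:26456553-26456582, minus strand), ISRE core: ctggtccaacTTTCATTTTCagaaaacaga
Ifit1 (chr19:34640775-34640804, plus strand), the first of 2 ISRE matches: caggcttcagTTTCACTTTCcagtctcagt
Stat2 (chr10:128270266-128270295, plus strand), ISRE core: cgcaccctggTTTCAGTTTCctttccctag
Ifih1 (chr2:62646206-62646233, minus strand), ISRE core: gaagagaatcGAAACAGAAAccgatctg
Irf1 (chr11:53769914-53769942, plus strand), GAS core: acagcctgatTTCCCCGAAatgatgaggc

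The GAS core was also in the promoters of Bst2, Eif2ak2, Ifi35, Ifit2, Ifitm3 and Psmb8, and in Bst2 the GAS match ended inside the run of ISRE matches. A match describes the letters in a window of fixed length and does not show binding. Of the members tested in neurons, the 10 with an ISRE core had a median log2 fold change (deleted against control) of 0.38 and the 18 whose promoter lacked one had a median of 0.21, with 4 genes below an unadjusted p of 0.05 in each set. Promoters were not available here for Usp18, Dhx58, Ifi27, Ifi27l2a, Mx1, Mx2, Parp14, Parp9, Rtp4 and Zbp1.

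**Figure D1:**
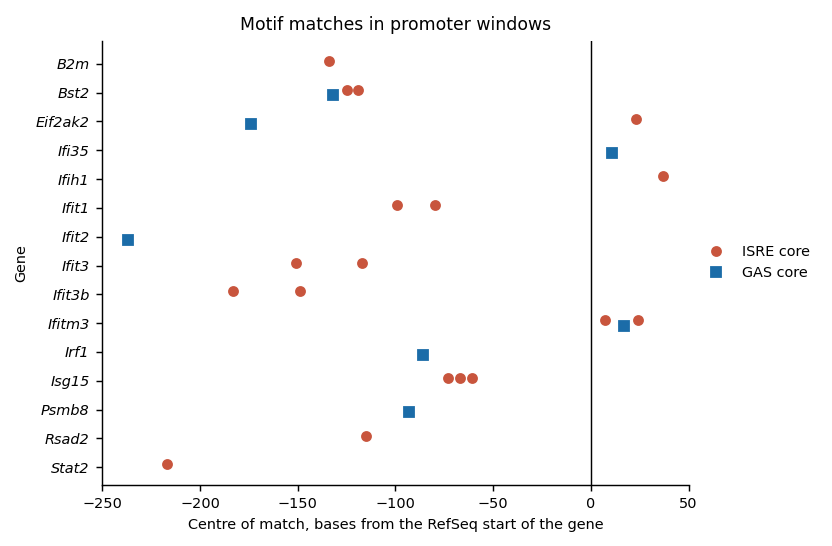
Position of each ISRE core (circles) and GAS core (squares) in the promoter windows of the members that held one; the x axis gives bases from the RefSeq start of the gene, with the start at 0. Most ISRE matches lay before the start, and those of Eif2ak2, Ifih1 and Ifitm3 lay after it.

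The first question was which members differed between neurons with and without Phf6. No member passed a false discovery rate (FDR, Benjamini-Hochberg over all genes) of 0.05 in edgeR's quasi-likelihood test with litter in the model, where 0.273% of 13908 genes did. DESeq2 also called 0 members and limma-trend called 1, Usp18 (FDR = 0.0240). The study's own test was of the limma-trend kind with a litter correction, and the study reported Usp18 as upregulated in these neurons. Single libraries moved the edgeR count, which was 4 without the control and 5 without the deleted library of litter 4, 2 without the control and 1 without the deleted library of litter 6, and 1 without litter 7. At an unadjusted p below 0.05, 10 of 34 members were on the higher side (29.4%, against 5.87% of all genes) and 1 on the lower side (4.47% of all genes). The log2 fold change was above 0 for 25 of 34 members (73.5%, against 50.3% of all genes), and the median was 0.23 over members and 0.00 over all genes tested. In 28 of the 34 members every control library reached the level of the filter, and 9 of these 28 were on the higher side at that p, 1 was on the lower side and 22 were above 0. Without the control or the deleted library of litter 6, 7 and 6 members in all had an unadjusted p below 0.05. In bulk RNA a change in the number of cells that express a gene cannot be told apart from a change in RNA per cell.

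Usp18 (chr6:121245906-121270917) had 6.35, 2.77 and 1.32 CPM in the control neurons of litters 4, 5 and 6. In the deleted neurons of the same litters it had 9.02, 10.4 and 6.44 CPM, and 20.4 CPM in litter 7. Every deleted library was above every control, narrowly so between the deleted library of litter 6 and the control of litter 4. The log2 fold change was 1.43 (SE 0.28, FDR = 0.0557 by edgeR), and within litters the difference in log2(CPM + 0.5) was 0.48 in litter 4, 1.74 in litter 5 and 1.93 in litter 6. Without the control of litter 5 the FDR was 0.628, and without its deleted library 0.545. Isg15, the ubiquitin-like protein that USP18 cleaves from its targets, had 2.71, 3.46 and 1.447 CPM in controls and 2.98, 1.65 and 2.84 CPM in the deleted littermates, with 7.34 CPM in litter 7. Its log2 fold change was 0.03 (SE 0.34, FDR = 0.987 by edgeR), and the sign of its difference was not the same in litters 4, 5 and 6.

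Among the transcription factors, Irf7, the amplifier of type I interferon transcription, had 5.21, 3.88 and 2.63 CPM in the controls of litters 4, 5 and 6 and 5.78, 5.41 and 5.96 CPM in their deleted littermates, with 13.3 CPM in litter 7. All 4 deleted libraries were above all 3 controls (log2 fold change 0.58, SE 0.22, FDR = 0.374 by edgeR). Irf9, the DNA-binding subunit of ISGF3, had 49.8, 44.99 and 32.4 CPM in controls and 49.0, 49.7 and 49.9 CPM in deleted littermates, with 51.7 CPM in litter 7. The deleted libraries were all near 50.1 CPM (mean, SD 1.15, n = 4) and the spread lay in the controls, with litter 6 low (log2 fold change 0.24, SE 0.11, FDR = 0.450 by edgeR). Stat2, its partner, had a log2 fold change of 0.07 (SE 0.07), and Irf1, the factor induced through GAS elements, one of 0.04 (SE 0.40).

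Of the RNA sensors, Eif2ak2 (PKR), the kinase that stops translation on double-stranded RNA, had 16.8, 11.9 and 9.08 CPM in controls and 18.8, 13.3 and 18.5 CPM in deleted littermates, with 28.7 CPM in litter 7. It was higher in the deleted library of each litter, by 0.16, 0.15 and 0.98 in log2(CPM + 0.5), and the groups overlapped (log2 fold change 0.44, SE 0.16, FDR = 0.332 by edgeR). Ifih1 (MDA5) had a log2 fold change of 0.46 (SE 0.31) and Dhx58 (LGP2) one of -0.44 (SE 0.45). Zbp1, a sensor of Z-form nucleic acid, was below the filter, with 0.132 to 0.440 CPM in control and 0 to 0.394 CPM in deleted neurons.

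The 12 tested antiviral effectors were split. Bst2 (tetherin, chr8:71534255-71537472), which holds budding virus at the cell surface, had 7.04, 5.08 and 4.03 CPM in controls and 8.14, 9.67 and 10.0 CPM in the deleted littermates, with 22.8 CPM in litter 7. No deleted library overlapped the controls, and the log2 fold change was 0.79 (SE 0.20, FDR = 0.135 by edgeR). Cmpk2, the mitochondrial nucleotide kinase next to Rsad2 on chromosome 12, went the other way. It had 14.8, 18.1 and 18.03 CPM in controls and 12.9, 11.9 and 13.8 CPM in deleted littermates, with 13.3 CPM in litter 7, so that all 4 deleted libraries lay below all 3 controls (log2 fold change -0.39, SE 0.13, FDR = 0.273 by edgeR). Its neighbour Rsad2 (viperin), the next gene in order of p and described after its values were seen, had 0.954, 0.877 and 0.307 CPM in controls and 0.884, 2.74 and 1.11 CPM in deleted littermates, with 3.15 CPM in litter 7. Its groups overlapped (log2 fold change 1.05, SE 0.49, FDR = 0.476 by edgeR). The tandem genes Ifit1 and Ifit3, which bind viral RNA, had log2 fold changes of -0.16 (SE 0.54) and -0.06 (SE 0.60), and reads of Ifit3 and its near-identical copy Ifit3b may have been split between them. Ifit2 had one of 0.08 (SE 0.14).

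The ADP-ribosyltransferases Parp12 and Parp9 both had p below 0.05. Parp12 had 6.79, 5.63 and 4.96 CPM in controls and 8.47, 9.48 and 8.03 CPM in deleted littermates, with 11.3 CPM in litter 7. All deleted libraries were above all controls (log2 fold change 0.58, SE 0.18, FDR = 0.223 by edgeR). Parp9 had 9.10, 3.92 and 4.21 CPM in controls and 8.84, 8.97 and 8.46 CPM in deleted littermates, with 12.7 CPM in litter 7, so the pair in litter 4 did not differ in the way those of litters 5 and 6 did (log2 fold change 0.67, SE 0.22, FDR = 0.279 by edgeR). Parp9 and Dtx3l, the ubiquitin ligase that its product binds, overlap on chromosome 16, and the strand setting of the counting was not given in the sources used here, so their counts may not be fully separate. Dtx3l had a log2 fold change of 0.17 (SE 0.22) and Parp14 one of 0.00 (SE 0.35).

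Ifi27, a mitochondrial interferon-induced protein, had 3.30, 2.03 and 0.965 CPM in controls and 3.72, 3.06 and 3.65 CPM in deleted littermates, with 2.86 CPM in litter 7. Among the members with an unadjusted p below 0.05, it alone had its lowest deleted level in litter 7 (log2 fold change 0.82, SE 0.34, FDR = 0.407 by edgeR). The gene overlaps Ifi27l2a in the annotation. B2m, the light chain of MHC class I, had 19.8, 13.1 and 14.03 CPM in controls and 24.9, 17.4 and 17.0 CPM in deleted littermates, with 20.3 CPM in litter 7. Each deleted library was above its littermate by a like amount (0.32, 0.40 and 0.26 in log2(CPM + 0.5)), while the groups overlapped because litter 4 was high in both genotypes (log2 fold change 0.34, SE 0.11, FDR = 0.281 by edgeR). The other antigen presentation members had log2 fold changes from -0.67 (Psmb8, SE 0.51) to 0.33 (H2-K1, SE 0.20).

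**Figure D2:**
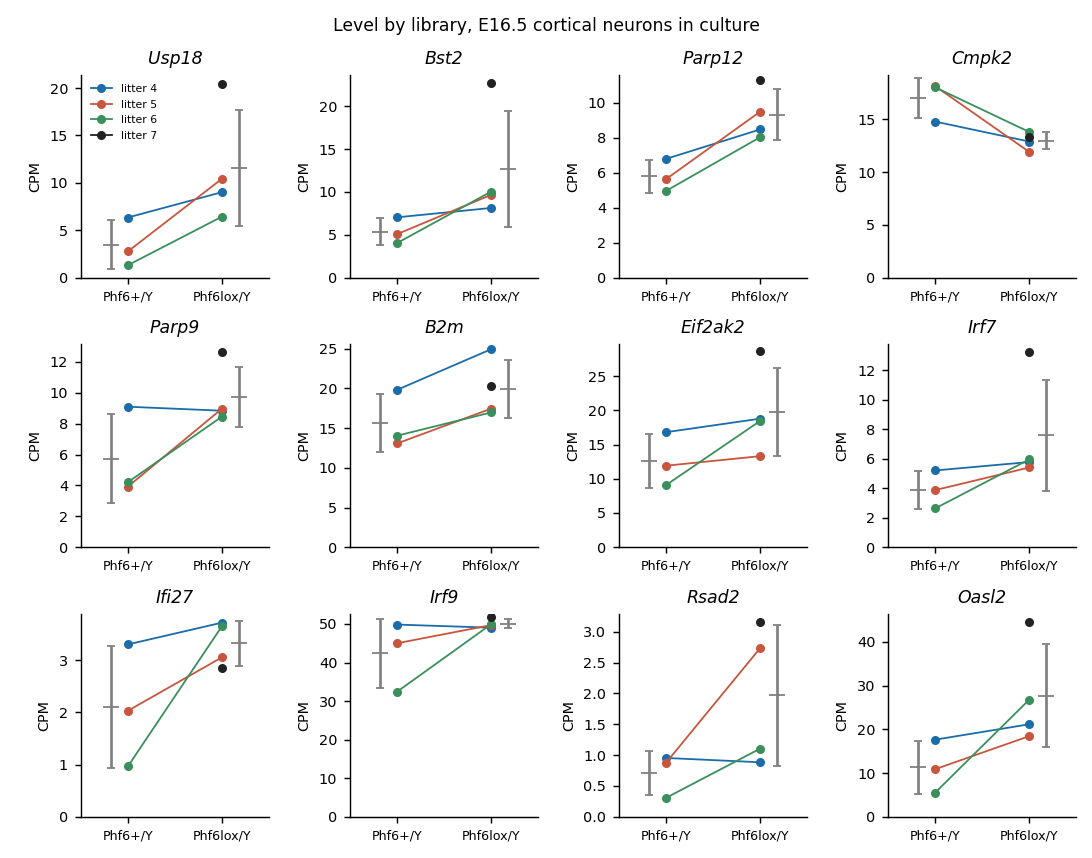
Level in CPM (y axis, from 0) of the 11 members with an unadjusted p below 0.05 and of Oasl2 in each neuron library; points are libraries, lines join the control (Phf6+/Y) and deleted (Phf6lox/Y) samples of a litter, both with Nes-cre, black points are litter 7 and grey bars are group mean ± SD. Usp18, Bst2, Parp12, Irf7 and Oasl2 do not overlap between groups, and Cmpk2 lies lower in the deleted libraries.

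Usp18, Bst2 and Parp12 kept an unadjusted p below 0.05 whichever single neuron library was left out, and the other 8 members did not. With litter in the model, leaving out either library of a pair removes that pair from the genotype estimate. Both values given for a litter are therefore near repeats of a single check, and such fits keep few degrees of freedom. Without the control or the deleted library of litter 6 the log2 fold change was 0.30 and 0.30 for Irf7, 0.16 and 0.15 for Eif2ak2, 0.36 and 0.36 for Ifi27 and 0.06 and 0.05 for Irf9, all with p above 0.05. Without the control or the deleted library of litter 5 it was -0.30 and -0.30 for Cmpk2 and 0.43 and 0.43 for Parp9, again with p above 0.05, and B2m lost its p without the deleted one (0.30). Without the control or the deleted library of litter 4 it was 1.10 and 1.10 for Parp9 (FDR = 0.00217 and 0.00249 by edgeR), 1.22 and 1.23 for Ifi27 and 1.72 and 1.72 for Rsad2. Rsad2 had p above 0.05 without any one library of litters 5, 6 or 7.

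Counted over libraries, 6 of the 34 members (Usp18, Bst2, Irf7, Parp12, Oasl2 and Ifi35) had all 4 deleted libraries above all 3 controls, which 3.61% of all genes tested had, and Cmpk2 had all below, as did 3.63% of all genes. Oasl2 and Ifi35 were picked out by this count and not by their p. Oasl2, an OAS-like protein, had 17.6, 10.9 and 5.53 CPM in controls and 21.2, 18.5 and 26.8 CPM in deleted littermates, with 44.5 CPM in litter 7 (log2 fold change 1.03, SE 0.48, FDR = 0.607 by edgeR). Ifi35 had 0.439 to 0.692 CPM in controls and 1.03 to 1.67 CPM in deleted neurons (log2 fold change 0.91, SE 0.49). It did not reach the level of the filter in every control library, so its place in this count and the next rests in part on the filter. The deleted library was the higher in each of litters 4, 5 and 6 for 12 members (35.3%, against 16.0% of all genes) and the lower for 2, Cmpk2 and Psmb8 (15.6% of all genes).

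Litters of neurons were compared with genotype in the model. Bst2 (FDR = 0.0281 by edgeR) and Usp18 (FDR = 0.0343 by edgeR) differed between litters, that is 2 of 34 members (5.88%), a share near the 5.04% of all genes. The number was 6 without the control and 9 without the deleted library of litter 4, 8 and 11 without those of litter 6, and 1 without the deleted library of litter 5 or of litter 7. At an unadjusted p below 0.05 there were 13 members (38.2%) beside 20.8% of all genes. After these 2 the lowest p values were those of Irf7, B2m, Eif2ak2 and Stat2 (FDR = 0.0622 for each of the first 3 and 0.0758 for Stat2, by edgeR). Stat2 had 50.2, 63.9 and 61.7 CPM in the controls of litters 4, 5 and 6 and 53.6, 62.2 and 68.8 CPM in their deleted littermates, with 52.6 CPM in litter 7, so litters 4 and 7 were low, whereas Bst2 and Usp18 were highest in litter 7.

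The library of litter 7 was above the other 6 neuron libraries for 25 of 34 members (73.5%), while 19.4% of all genes tested had their highest level there. Among the controls, litter 4 was highest and litter 6 lowest for 21 of 34 members (61.8%), as for 19.0% of all genes. The signed difference, deleted minus control, was lower in litter 4 than in litters 5 and 6 for 21 of 34 members (61.8%, against 31.7% of all genes), and these 2 counts share the control of litter 4. The patterns counted in this paragraph were not among the planned tests, and each rests on 1 library per litter and genotype. Members measured in 1 library are not independent, so the counts describe these libraries and test nothing. Averaged over the 34 tested members, log2(CPM + 0.5) was 2.43, 2.15 and 1.72 in the controls of litters 4, 5 and 6, 2.44, 2.28 and 2.39 in their deleted littermates and 2.97 in litter 7. The deleted library was therefore level with its littermate in litter 4 and above it in litters 5 and 6. With litter in the model a library that is alone in its litter adds nothing to the genotype estimate, and without that library the log2 fold change of Usp18 was 1.45 (FDR = 0.0433 by edgeR), with 10 members at an unadjusted p below 0.05.

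Marker genes of other cells were measured in the same neuron libraries. The 15 microglia and macrophage markers summed to 63.8 to 79.6 CPM in controls and 51.5 to 75.1 CPM in deleted neurons, none was at 0 reads in either group, and the lowest sum was that of litter 7, where the members were highest. Of 14 tested, 0 microglial markers had an unadjusted p below 0.05 in edgeR. The 10 radial glia and progenitor markers summed to 759 to 1109 CPM in controls and 682 to 1013 CPM in deleted neurons, and 4 of 10 were on the lower side at an unadjusted p below 0.05. Control and deleted sums were 1109 and 1013 CPM in litter 4, 759 and 682 in litter 5 and 787 and 705 in litter 6. Litter 7 had 968 CPM. Between litters 9 of the 10 differed at an FDR below 0.05 in edgeR, beside 5.04% of all genes. The members' mean level was also highest in litter 4 among controls, but in litter 7 among deleted libraries. The 5 choroid plexus markers summed to 0.880 to 3.14 CPM in controls and 2.98 to 23.2 CPM in deleted neurons, with the highest sum in litter 5, and Ttr rose in the deleted neurons (log2 fold change 2.84, SE 0.27, FDR = 1.83e-04 by edgeR). The 9 mural cell and fibroblast markers summed to 9.46 to 12.3 CPM in controls and 12.2 to 16.2 CPM in deleted neurons, with the highest sum in litter 7, where the members were highest too, and none was at 0 reads. Of 8 tested, 6 had a log2 fold change above 0 (median 0.33) and 1 an unadjusted p below 0.05, on the higher side. Endothelial markers summed to 28.5 to 44.0 CPM in controls and 25.6 to 37.7 CPM in deleted neurons, and erythroid markers to 13.5 to 32.3 CPM and 11.4 to 27.9 CPM. Of the 10 neuronal markers, whose sums overlapped between the groups, 2 were on the higher side at an unadjusted p below 0.05 in edgeR and 0 on the lower. The part of these cell types in the members' levels was not tested.

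**Figure D3:**
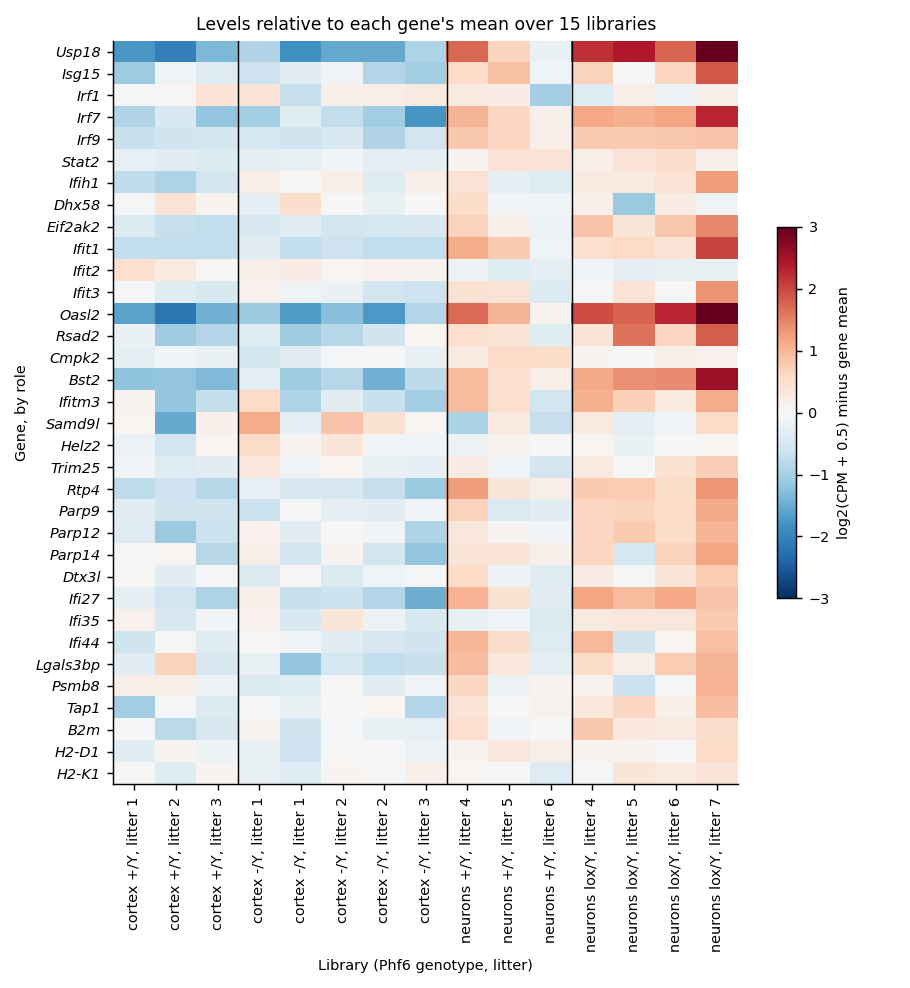
Level of the 34 members tested in neurons in each of the 15 libraries, as log2(CPM + 0.5) minus the gene's mean over all libraries, with genes grouped by role and libraries by group and litter; colours stop at 3 and -3. The neuron libraries are redder than the cortex libraries for Usp18, Oasl2, Bst2 and Irf7, and litter 7 is the reddest column.

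In the E15.5 cortex the germline deletion was compared with littermate controls in the same way. No member passed an FDR of 0.05 in edgeR, DESeq2 or limma-trend, and 0.386% of 14749 genes did in edgeR. At an unadjusted p below 0.05 there was 1 member on the higher side, Ifih1 (3.45%, against 5.69% of all genes), and 0 on the lower side (4.77% of all genes). The log2 fold change was above 0 for 18 of 29 members (62.1%, against 49.4% of all genes), with a median of 0.05 over members and 0.00 over all genes. The deleted libraries were above the control in each of litters 1, 2 and 3 for 5 members (17.2%, against 15.9%) and below it for 3 (10.3%, against 16.2%).

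Ifih1 (chr2:62595618-62646255), the cytosolic sensor of long double-stranded RNA, had 1.28, 0.872 and 1.05 CPM in the controls of litters 3, 2 and 1. In Phf6-/Y cortex it had 2.52 CPM in litter 3, 2.51 and 1.54 CPM in litter 2 and 2.52 and 2.17 CPM in litter 1. All 5 were above all 3 controls, which was so for 2.47% of all genes, and no member had all 5 below (2.55% of all genes). The log2 fold change was 1.12 (SE 0.32, FDR = 0.197 by edgeR), and it rested on 22 to 41 reads per control and 42 to 74 reads per Phf6-/Y library. In neurons the groups of Ifih1 overlapped, at 1.49 to 3.04 CPM in control and 2.65 to 5.76 CPM in deleted libraries.

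Usp18 was at the edge of detection in cortex. Controls had 10, 0 and 3 reads and Phf6-/Y libraries 14, 6, 6, 18 and 2 reads, that is 0 to 0.313 CPM and 0.0836 to 0.612 CPM, with overlapping groups. It did not pass the filter there and was not tested in the cortex fit. With no filter its log2 fold change was 1.74 (FDR = 0.661 by edgeR).

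The other members of lowest p in cortex were effectors and ADP-ribosyltransferases. Oasl2 had 1.56, 0.753 and 1.33 CPM in controls 1 to 3 and 2.52, 1.83, 1.207, 2.11 and 1.25 CPM in Phf6-/Y libraries 1 to 5 (log2 fold change 0.66, SE 0.35, FDR = 0.553 by edgeR). Bst2 had 1.06, 1.23 and 1.209 CPM in controls and 1.76, 1.68, 0.951, 2.69 and 1.38 CPM in Phf6-/Y cortex (log2 fold change 0.50, SE 0.37, FDR = 0.687 by edgeR). In both genes 1 or more Phf6-/Y libraries lay within the control range or below it.

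Parp12 had 3.19, 2.22 and 3.91 CPM in controls and 2.56, 5.38, 4.86, 5.78 and 4.10 CPM in Phf6-/Y cortex (log2 fold change 0.45, SE 0.28, FDR = 0.611 by edgeR). Parp9 had 3.47, 3.45 and 4.19 CPM in controls and 5.17, 4.37, 4.28, 3.30 and 5.23 CPM in Phf6-/Y cortex (log2 fold change 0.28, SE 0.22, FDR = 0.716 by edgeR). Each had 4 of 5 Phf6-/Y libraries above all controls.

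Helz2, a helicase that acts as a nuclear receptor coactivator, had 4.57, 2.81 and 3.87 CPM in controls and 4.16, 5.77, 4.10, 6.67 and 4.68 CPM in Phf6-/Y cortex (log2 fold change 0.45, SE 0.24, FDR = 0.561 by edgeR). Samd9l, a growth-restricting antiviral protein, had 1.19, 0.0396 and 1.09 CPM in controls and 1.09, 2.26, 1.61, 2.82 and 0.752 CPM in Phf6-/Y cortex (log2 fold change 1.29, SE 0.85, FDR = 0.655 by edgeR). The control of litter 2 was the low one in both. Without that control the log2 fold change was 0.26 for Helz2, 0.37 for Samd9l and 0.07 for Parp12, and without the control of litter 3 it was 0.68, 1.97 and 0.74.

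Lgals3bp, a secreted galectin-binding protein, had 0.782, 2.42 and 0.927 CPM in controls and 0.630, 0.753, 0.585, 1.05 and 0.293 CPM in Phf6-/Y cortex (log2 fold change -0.99, SE 0.47, FDR = 0.494 by edgeR). Its control of litter 2 was the high one, and without it the log2 fold change was -0.38. Psmb8, the immunoproteasome subunit, had 0.532, 0.832 and 0.846 CPM in controls and 0.588, 0.681, 0.439, 0.374 and 0.418 CPM in Phf6-/Y cortex (log2 fold change -0.58, SE 0.44, FDR = 0.699 by edgeR). Ifit2 had 12.5, 14.7 and 17.7 CPM in controls and 13.3, 12.7, 13.5, 13.9 and 14.5 CPM in Phf6-/Y cortex (log2 fold change -0.16, SE 0.12, FDR = 0.677 by edgeR). The groups overlapped for all 3. Marker sums of other cells varied widely among the cortex libraries, at 1.81 to 472 CPM for choroid plexus and 80.8 to 634 CPM for mural cells and fibroblasts. Phf6-/Y library 4 had the highest mural, endothelial and microglial sums. It also had the highest level of Bst2, Parp12, Helz2 and Samd9l, but not of Ifih1, Oasl2 or Parp9. What these cells added to the members' levels in cortex was not tested.

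**Figure D4:**
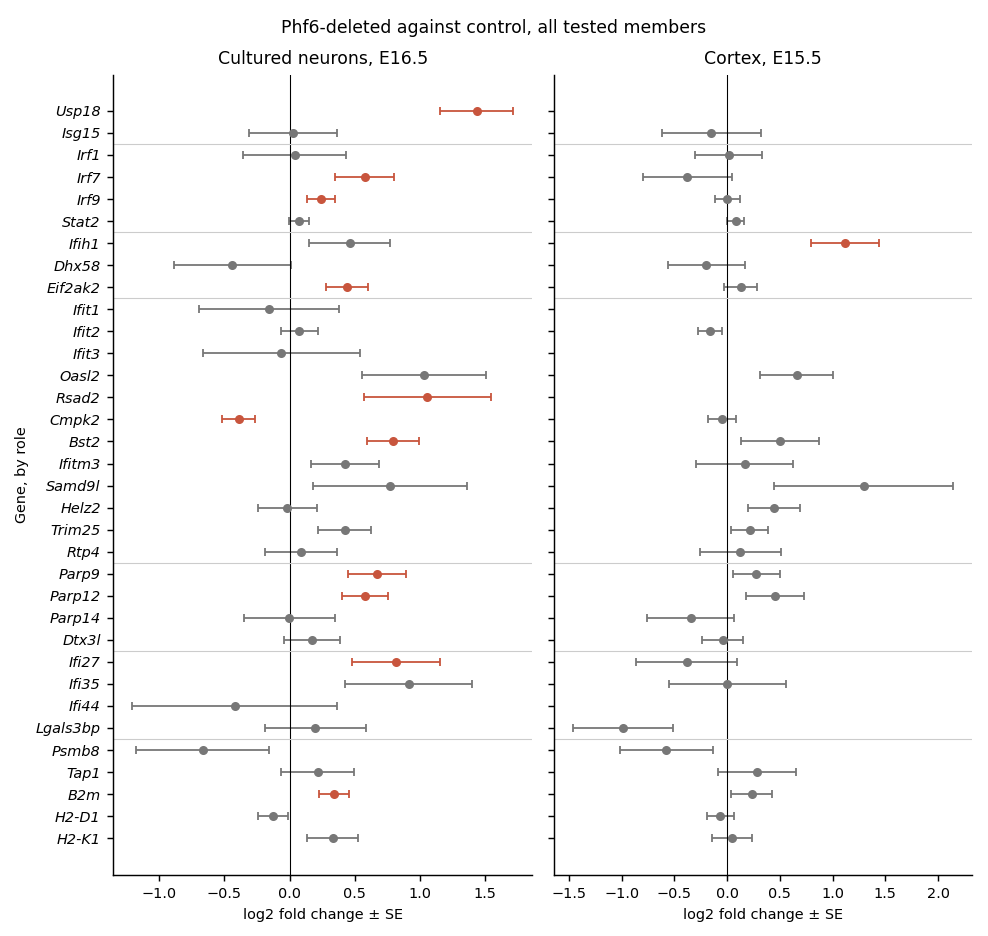
Log2 fold change ± SE (edgeR) of Phf6-deleted against control samples for each tested member, by role, in cultured neurons (left) and cortex (right); red marks an unadjusted p below 0.05 and a gap means that the gene was not tested. In neurons Usp18 has the highest value at 1.43, and in cortex 1 member is marked, Ifih1 at 1.12.

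The effect of the deletion was then compared between neurons and cortex. No member of 35 tested had an interaction with an FDR below 0.05 in edgeR, DESeq2 or limma-trend, beside 0.0133% of 15000 genes in edgeR, and 0 members had an unadjusted p below 0.05, beside 5.20% of all genes. The member of lowest p was Irf7, with a log2 fold change 0.94 higher in neurons than in cortex (SE 0.46, FDR = 0.955 by edgeR). For Usp18 the fitted difference between the tissues was 0.00 on the log2 scale. No SE is given for it, because the value from the root of F fell below the SE of the neuron effect alone (0.28). The difference rested on 0 to 18 reads per cortex library. It was -0.71 to 0.57 with a library left out, lowest without Phf6-/Y 1 and highest without the neuron control of litter 4. A member with p below 0.05 in neurons was thus not shown to respond differently in cortex.

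Between litters of cortex, 0 members had an FDR below 0.05 in edgeR, DESeq2 or limma-trend (1.70% of all genes in edgeR). The lowest p values were those of H2-D1, an MHC class I heavy chain, with 9.91 to 16.6 CPM over the 8 cortex libraries, Parp14 with 0.336 to 1.63 CPM and Ifi27 with 0.168 to 1.56 CPM (FDR = 0.232, 0.267 and 0.272 by edgeR). Ifitm3, Irf7 and Cmpk2 followed, with FDR = 0.393, 0.414 and 0.416 by edgeR.

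The control libraries give the level of these genes without the deletion. Of 31 members tested, 14 had higher levels in control neurons than in control cortex at an FDR below 0.05 (45.2%, against 24.7% of all genes), and 1, Ifit2, had a lower level (3.23%, against 26.4% of all genes). The 14 were Usp18, Oasl2, Rsad2, Bst2, Rtp4, Irf7, Ifi27, Isg15, Irf9, Eif2ak2, Parp12, Cmpk2, Stat2 and B2m. Usp18 had 10, 0 and 3 reads in the control cortex libraries and 173, 60 and 30 in the control neurons. It passed the filter through the neuron libraries, where it is high, so its place among the 14 rests in part on the filter. With a single control library left out the FDR by edgeR reached 0.0700 for Ifit2 (without cortex control 3), 0.0526 for Parp12 (cortex control 2), 0.144 for Ifi27 and 0.154 for B2m (neuron control of litter 4), 0.130 for Isg15 (neuron control of litter 5) and 0.169 for Rsad2 (cortex control 1). The other 9 calls held without any one library. Radial glia and progenitor markers summed to 2927 to 3080 CPM in control cortex and 759 to 1109 CPM in control neurons. Endothelial markers summed to 187 to 230 and 28.5 to 44.0 CPM, and neuronal markers to 6488 to 7103 and 9943 to 11115 CPM. Mural cell and fibroblast markers summed to 82.8 to 347 and 9.46 to 12.3 CPM, and 5 of 9 were lower in neurons at an FDR below 0.05 in edgeR. The microglial sums overlapped, while 4 of 15 microglial markers were lower and 1 higher in neurons at that FDR. Age, dissociation, culture, cell content and the Nes-cre transgene differed together with the tissue and cannot be told apart.

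Usp18 rose from 0.313, 0 and 0.121 CPM in control cortex to 6.35, 2.77 and 1.32 CPM in control neurons (log2 fold change 4.46, SE 0.83, FDR = 0.00134 by edgeR). The size of this fold change rests on 0 to 10 reads per cortex library. Oasl2 rose from 1.56, 0.753 and 1.33 CPM to 17.6, 10.9 and 5.53 CPM (log2 fold change 3.21, SE 0.44, FDR = 2.53e-04 by edgeR). Bst2 rose from 1.06, 1.23 and 1.209 CPM to 7.04, 5.08 and 4.03 CPM (log2 fold change 2.20, SE 0.31, FDR = 6.72e-05 by edgeR). None of these groups overlapped, and the spread lay mostly in the neurons.

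Irf7 rose from 0.751, 1.54 and 1.01 CPM to 5.21, 3.88 and 2.63 CPM (log2 fold change 1.83, SE 0.38, FDR = 0.00132 by edgeR). Irf9 rose from 19.2, 18.6 and 17.8 CPM to 49.8, 44.99 and 32.4 CPM (log2 fold change 1.19, SE 0.15, FDR = 2.37e-05 by edgeR). Stat2 rose from 35.7, 37.2 and 39.9 CPM to 50.2, 63.9 and 61.7 CPM (log2 fold change 0.64, SE 0.11, FDR = 3.12e-04 by edgeR). Stat2 and Irf9 were thus already well expressed in cortex, where Usp18 had almost no reads.

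Per kilobase of gene model, the members of highest level in control neurons were B2m (18.2 FPKM), Irf9 (15.8 FPKM), Stat2 (13.3 FPKM), H2-D1 (10.4 FPKM) and Bst2 (7.00 FPKM), and Usp18 stood at 1.96 FPKM. In control cortex the order began with B2m (12.1 FPKM), Stat2 (8.55 FPKM), H2-D1 (8.20 FPKM) and Irf9 (6.90 FPKM), with Usp18 at 0.0816 FPKM. Among these neighbours in neurons the libraries of B2m overlapped with those of Irf9 and those of Irf9 with Stat2 in FPKM, whereas Stat2 (from 11.4 FPKM) lay above H2-D1 (up to 11.2 FPKM) and H2-D1 (from 9.70 FPKM) above Bst2 (up to 9.16 FPKM). In cortex each of the 4 overlapped with the next. H2-D1 and H2-K1 are similar in sequence and reads may have been split between them. The 6 tested members that did not reach the filter in every control neuron library were Ifit1, Ifit3, Rsad2, Samd9l, Ifi35 and Ifi44. Ifit3b, Ifi27l2a, Xaf1, Psmb9 and Zbp1 were not tested in either tissue and had at most 0.769 CPM in any of the 15 libraries. Mx1 had 0 to 9 reads and Mx2 2 to 37 reads per library.

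**Figure D5:**
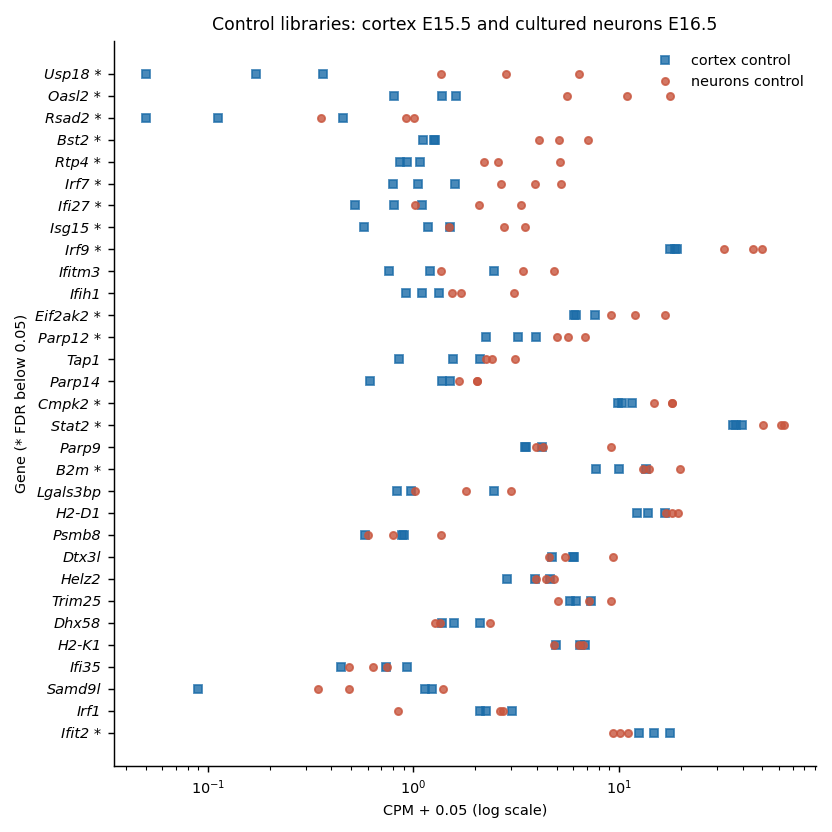
Level (CPM + 0.05, log axis) of the 31 tested members in the 3 control cortex libraries (squares) and the 3 control neuron libraries (circles), ordered by log2 fold change; an asterisk marks an FDR below 0.05. Usp18 and Oasl2 stand highest in the order and Ifit2 lowest.

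The rest of the pathway was counted from lists by role. Of 20 interferon genes (type I, II and III), 0 could be tested and 6 had a read in any library, 13 reads in all. Ifnb1, the first type I interferon made after infection, had 0 reads in all 15 libraries, which allows up to 0.00813 CPM (3 counts of the total, for counting error only). The type I receptor subunits were well expressed, Ifnar1 at 141 ± 1.81 CPM (SD, n = 3) in control and 143 ± 6.09 CPM (SD, n = 4) in deleted neurons, and Ifnar2 at 31.5 ± 1.93 CPM (SD, n = 3) and 29.9 ± 0.959 CPM (SD, n = 4). The interferon-gamma receptor had Ifngr1 at 3.18 ± 0.329 CPM (SD, n = 3) and 2.85 ± 0.568 CPM (SD, n = 4), and Ifngr2 at 125 ± 9.06 CPM (SD, n = 3) and 116 ± 4.24 CPM (SD, n = 4). Of the 5 receptor genes tested in neurons 0 had an unadjusted p below 0.05 in edgeR. Il10rb, shared with the interleukin-10 receptor, had the lowest p (log2 fold change -0.70, SE 0.38), and Ifnlr1, the type III receptor, was not tested there. In cortex Ifngr2 alone of 6 had p below 0.05 (log2 fold change -0.18, SE 0.07, FDR = 0.384 by edgeR), and Ifngr2 also differed between cortex litters (FDR = 0.0451 by edgeR).

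For the counts at an unadjusted p below 0.05 that follow, the shares over all genes were 5.87% on the higher and 4.47% on the lower side in neurons, and 5.69% and 4.77% in cortex. Of 9 kinases and transcription factors outside the list, 2 had p below 0.05 on the higher side in neurons, the receptor kinase Jak1 with the lower p (log2 fold change 0.18, SE 0.06, FDR = 0.285 by edgeR). In cortex 2 of 9 were also on the higher side and 0 on the lower. Jak2 had the lowest p of this list there (log2 fold change 0.20, SE 0.07, FDR = 0.328 by edgeR).

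Of 15 tested genes of nucleic acid sensing, 1 had p below 0.05 in neurons, Ddx58 (RIG-I), the sensor of 5′-triphosphate RNA. It had 9.65, 7.66 and 5.48 CPM in controls and 11.1, 10.9 and 10.1 CPM in deleted littermates, with 16.45 CPM in litter 7 (log2 fold change 0.52, SE 0.17, FDR = 0.257 by edgeR), and the groups did not overlap. In cortex 2 of 16 tested had p below 0.05, both on the lower side. Rnaseh2a, a subunit of the nuclease that clears RNA-DNA hybrids, had the lowest p (log2 fold change -0.22, SE 0.08, FDR = 0.349 by edgeR). Of 8 inhibitors 1 had p below 0.05 in neurons, the phosphatase Ptpn2 on the lower side (log2 fold change -0.22, SE 0.08, FDR = 0.368 by edgeR), and 0 had in cortex, where Socs1 was lowest in p.

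Of 34 tested interferon-induced genes outside the member list, 7 were on the higher and 1 on the lower side at an unadjusted p below 0.05 in neurons, and 0 passed the FDR in edgeR. Rnf213, a large ubiquitin ligase, had the lowest p, with 37.8, 19.0 and 18.03 CPM in controls and 45.5, 40.2 and 48.3 CPM in deleted littermates, and 145 CPM in litter 7 (log2 fold change 0.89, SE 0.20, FDR = 0.198 by edgeR). The groups did not overlap and litter 7 stood apart. Slfn9, Rnf213, Irgm1 and Gbp3 differed between litters of neurons (FDR = 0.0172, 0.0329, 0.0437 and 0.0443 by edgeR). In cortex 1 of 27 was on the higher side, Pml (log2 fold change 0.26, SE 0.09, FDR = 0.315 by edgeR), and 1 on the lower side. Of 4 tested genes of ISG15 conjugation in neurons, among them the member Trim25 (log2 fold change 0.42, SE 0.20), and of 12 other genes of antigen presentation, led by Psmb10 (log2 fold change -0.32, SE 0.18), 0 had p below 0.05 in edgeR. In cortex 0 of 5 and 0 of 13 had, and the lowest p values were those of Ube2l6 (log2 fold change -0.30, SE 0.17) and H2-M3 (log2 fold change 1.08, SE 0.55).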

How the data were processed

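RNA-seq was made from individual foetuses, with stranded libraries read in pairs, aligned to mm10 with Rsubread and summarised per RefSeq gene with featureCounts by the authors. The deposited values are raw counts per gene, and the 15 sample files matched the count table of the series. Rows without an identifier (0.349 to 0.605% of counts), pseudogenes, rRNA genes and predicted names were removed, as in the study. Genotype was tested in each tissue with edgeR 4.0.16 (filterByExpr with a minimum count of 10, TMM, robust quasi-likelihood F test) with litter as a term, and P values were adjusted by Benjamini-Hochberg over all genes tested. The interaction, the litters and the control tissues were tested likewise (controls without litter). limma 3.58.1, DESeq2 1.42.0, other scalings, no filter, other terms and each library left out were alternatives. CPM are on 1 TMM scale over all libraries, FPKM divide them by gene length, and SE is the log2 fold change over the root of F. The fits were tested on simulated data.

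Samples are paired by the litters in the labels. Deviations of same-litter samples correlated at 0.154 to 0.345 in neurons (3 pairs) and -0.123 to 0.481 in cortex (5 pairs). Pairs of the same replicate number gave -0.216 to 0.287 in neurons and -0.235 to 0.293 in cortex. In cortex the pairs of replicates 1 and 2 were also littermates, so the ranges there do not separate the pairings. The members and lists were chosen with earlier results of these data known. Members described per library were Usp18, the 10 of lowest p in each genotype test and up to 6 of lowest p in the litter and control tests, and Mx1 and Mx2 are given as reads only. The values of 1 gene of the pathway lists are not reported here.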

Additional observations from a re-analysis of the deposited data

Results flagged for a closer look

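A gap test for a single library (Dixon, 95% level) was run in the groups of 4 deleted neuron and 5 Phf6-/Y cortex libraries for 35 members, 70 tests in all, of which chance flags about 1 in 20. It marked 10. In deleted neurons the library of litter 7 was far above the other 3 for Irf7 (13.3 CPM, others 5.41 to 5.96), Bst2 (22.8 CPM, others 8.14 to 10.0), Ifih1 (5.76 CPM, others 2.65 to 3.03), Ifit1 (2.91 CPM, others 0.625 to 0.764), Parp9 (12.7 CPM, others 8.46 to 8.97), Ifi35 (1.67 CPM, others 1.03 to 1.11) and H2-D1 (23.4 CPM, others 15.9 to 16.9). These 7 values come from 1 library and are not independent. For Helz2 the library of litter 5 was low at 3.76 CPM, beside 4.47 to 4.60 CPM. In Phf6-/Y cortex Eif2ak2 had 8.11 CPM in replicate 5, beside 6.85 to 7.18 CPM, and Ifit1 had 0.170 CPM in replicate 4, beside 0 to 0.0358 CPM, which is a handful of reads.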

How the results depend on the processing

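No result that passed its threshold changed sign under the alternatives run. In neurons the count of members with an FDR below 0.05, 0 in the analysis reported, was 1 with library totals, 5 with no low-count filter, 1 with limma-trend, 0 with DESeq2 and no litter term, and 0 to 5 with a library left out, and the count at an unadjusted p below 0.05 was 6 to 15 with a library left out. The log2 fold change of Usp18 was 1.42 with library totals (FDR = 0.0495), 1.42 with no filter (FDR = 2.31e-11), 1.53 with limma-trend (FDR = 0.0240), 1.56 with DESeq2 (FDR = 0.234) and 1.12 to 2.08 with a library left out, with an FDR below 0.05 in 9 of 15 alternatives and a highest FDR of 0.739, with no litter term. With the replicate number as a block in place of litter it was 2.05 (FDR = 0.00974), and 2 members were called. Fits that leave out either library of the same litter are not separate checks among these alternatives. With no filter many rows of few counts enter the estimate of spread; the cause of the other changes was not tested. In cortex the count at an unadjusted p below 0.05 was 2 with no filter, DESeq2 or no litter term and 1 to 4 with a library left out (4 without control 1, Phf6-/Y 1 or Phf6-/Y 5, and 2 without Phf6-/Y 4). Members that differed between neuron litters were 6 with library totals, 11 with no filter, 1 with DESeq2, 1 with limma-trend and 1 to 11 with a library left out (6 and 8 without controls 1 and 3, 9 and 11 without deleted libraries 2 and 4, and 1 without deleted library 1 or 3). Members that differed between control tissues were 11 to 18 in all alternatives. Keeping pseudogenes, an alternative chosen after seeing the data, left the counts at 0 and 11, with a log2 fold change of 0.21 (SE 0.47) for Mx2. Usp18 entered the cortex test only with no filter (log2 fold change 1.74, FDR = 0.661) or without one of the controls (1.19 to 2.27). Depth limits the members under about 1 CPM, whose values rest on few reads.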
